A study of Mus musculus with 10 samples.

Results

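The levels of 50 genes of mitosis and the G2/M transition were examined in bulk RNA-seq of mouse liver. These genes were picked by symbol from the gene count table for their part in mitotic entry, the spindle, the kinetochore, anaphase and cytokinesis rather than by a cutoff on their values, although earlier results of these data were known when they were picked. All 50 were among the 55291 genes of the table, and all 50 were among the 17015 genes that passed the filter on low counts (edgeR's filterByExpr). The livers came from female Cas9 Lox-Stop-Lox mice of 16 to 20 weeks, in which Cas9 is made only in cells where Cre has cut out a stop cassette. Every mouse received the virus AAV8-U6-sgRNA-TBG-Cre, which carries a guide RNA and a Cre gene behind TBG, a promoter that is active in hepatocytes. The guide either had no target (non-targeting control, NTC) or cut Bap1 (sgBap1), which encodes a deubiquitinase, so the NTC livers also hold virus, Cre and Cas9. After 10 days the mice received carbon tetrachloride (CCl4), a solvent that injures the liver, or its olive oil vehicle (Veh), and the livers were taken 48 hours later. The groups were NTC-Veh and sgBap1-Veh with 2 mice each, and NTC-CCl4 and sgBap1-CCl4 with 3 mice each. The RNA is that of whole liver, in which cells other than hepatocytes keep an intact Bap1. The editing that the authors reported was partial, so some hepatocytes may keep it too.

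A cell enters mitosis when the kinase CDK1, bound to cyclin A or cyclin B, is switched on by CDC25 phosphatases. Polo-like and Aurora kinases then build the spindle, the kinetochores attach chromosomes to it, and the spindle checkpoint holds back the anaphase-promoting complex until every chromosome is attached. Hepatocytes of an adult liver mostly rest outside the cell cycle and return to it after tissue is lost. In resting cells the DREAM complex keeps these genes low, and in dividing cells B-MYB and FOXM1 switch them on through a short promoter element called the cell cycle genes homology region (CHR), often with a CCAAT box beside it.

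Since genes of this kind are known for this shared promoter element, the RefSeq promoter windows (GRCm38.p6, 250 bases before to 50 bases after each start) were searched for it. Windows were given for 41 of the 50 genes. Aurkb, Ccna2, Cdc25c, Spc24, Incenp, Kif20a, Tpx2, Dlgap5 and Foxm1 were not in the table. A CHR, searched as TTTGAA or TTCGAA on either strand, was found for 32 of the 41 (78%), against 21.7% of the 27034 genes of the table. CCAAT was found on either strand for 29 (70.7%), against 41% of all genes. Both motifs were found for 27 (65.9%), against 8.61% of all genes. An E2F motif, searched as TTGGCGC or TTCGCGC on either strand, was found for 7 (17.1%), against 4.47%. TTGGCGC can overlap a CCAAT box on the other strand, as it does for Ccnb1. A gene had on average 1.05 windows among the 41 and 1.22 among all genes. These matches are descriptions of the sequence, no binding was measured, and the shares were not tested. The 5 stretches that follow lie within the 150 bases before the start, outside any annotated exon, and are written along the strand of the gene with matches to the 3 motifs in capitals. Cdk1, Cdc20, Mki67 and Top2a are shown because they hold a CHR and a CCAAT box and are described in detail, and Nuf2, a kinetochore gene, because its window holds no match although its RNA rose as theirs did. The stretches lie at chr10:69352939-69353062 for Cdk1, chr4:118437353-118437493 for Cdc20, chr7:135716380-135716529 for Mki67, chr11:99024190-99024339 for Top2a and chr1:169531465-169531614 for Nuf2, each on the minus strand.
Cdk1: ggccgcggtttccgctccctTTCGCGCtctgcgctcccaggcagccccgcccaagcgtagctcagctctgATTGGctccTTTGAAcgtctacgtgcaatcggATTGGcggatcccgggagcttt
Cdc20: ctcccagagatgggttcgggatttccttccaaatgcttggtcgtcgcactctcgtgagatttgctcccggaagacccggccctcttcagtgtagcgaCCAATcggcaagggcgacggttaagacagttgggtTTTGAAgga
Mki67: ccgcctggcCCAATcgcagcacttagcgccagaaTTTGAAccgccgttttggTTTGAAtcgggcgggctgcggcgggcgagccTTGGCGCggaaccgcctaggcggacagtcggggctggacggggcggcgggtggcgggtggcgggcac
Top2a: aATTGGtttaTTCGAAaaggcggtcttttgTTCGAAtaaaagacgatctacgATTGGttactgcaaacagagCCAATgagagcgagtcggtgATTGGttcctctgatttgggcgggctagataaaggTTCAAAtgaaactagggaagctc
Nuf2: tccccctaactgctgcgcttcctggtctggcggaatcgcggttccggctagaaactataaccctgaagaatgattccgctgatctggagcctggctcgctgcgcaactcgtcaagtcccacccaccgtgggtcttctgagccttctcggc

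Counted from the start, the CHR printed for Cdk1 begins at base -71 and a CCAAT box on the other strand at base -80, and a further CHR at base -15 lies past the printed stretch. In Cdc20 the CHR begins at base -18, and Mki67 has CHRs at bases -116 and -98. The stretch of Top2a holds 3 CHRs and 4 CCAAT boxes. For Plk1, Aurka, Ttk, Bub1, Cdc25b, Cenpa, Cenpf, Ndc80 and Spc25, a CHR was found only after the start. So it was for Cdca8, Kif20b, Kif23, Kif4, Hmmr, Aspm, Racgap1 and Anln. Melk, Pttg1, Mad2l1, Nuf2, Birc5 and Nusap1 had no match to any of the 3 motifs, which says only that these letters are not in these windows. The windows of Pttg1, Cdca8, Kif14, Kif2c and Kif4 lie within the gene as annotated in GENCODE vM21. Of these, Cdca8, Kif14, Kif2c and Kif4 were counted as holding a CHR.

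**Figure D1:**
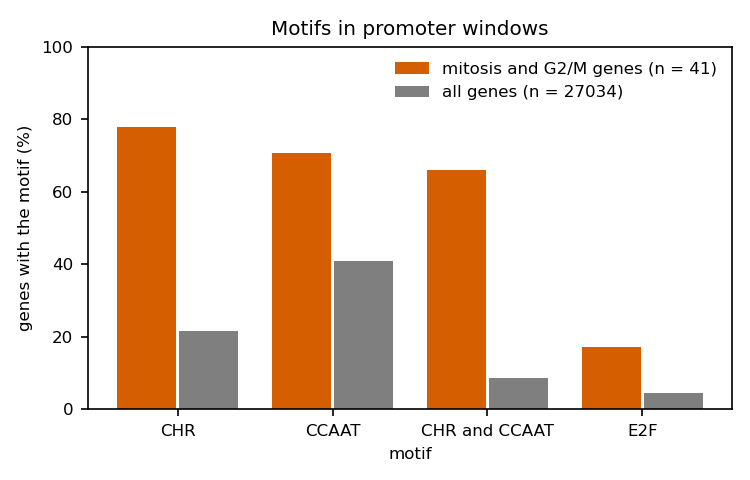
Percent of genes (y axis) whose RefSeq promoter window holds each motif (x axis), for the 41 mitosis and G2/M genes with a window (orange) and all 27034 genes with a window (grey). The CHR is found for 78% against 21.7%, and the CHR together with CCAAT for 65.9% against 8.61%.

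Estimated counts totalled 33047900 to 52199900 per mouse, and a detection floor of 3 counts was 0.0511 to 0.112 on the counts-per-million scale (CPM), a limit that covers counting error only. Levels are given in CPM of the library normalised by edgeR's TMM method, with factors of 0.786 to 0.851 in the vehicle and 1.083 to 1.235 in the CCl4 livers. Bap1 measured 34.8 and 34.8 CPM in the NTC-Veh and 17.5 and 19.5 in the sgBap1-Veh mice, and 30.1, 31.5 and 29.5 CPM in the NTC-CCl4 and 17, 21.8 and 19.1 in the sgBap1-CCl4 mice. It was lower in every sgBap1 than in every NTC liver, with log2 fold changes of -0.91 with vehicle (edgeR adjusted p = 0.0172) and -0.65 with CCl4 (edgeR adjusted p = 0.0307), and it was past the threshold in 14 and 9 of 18 fits of the data. The 8 hepatocyte markers, Alb among them, summed to 67600 to 153000 CPM in all 10 livers. Fat cell markers stood out in sgBap1-CCl4 replicate 2, where 5 of them summed to 145 CPM against at most 15.4 CPM in the other 9 livers. Medians of the 50 genes, counts of calls and several single genes that use this liver are also given without it below, and Bap1 with CCl4 was -0.75 without it (edgeR adjusted p = 0.0288). Unless DESeq2 or a permutation test is named, every p is two-sided and comes from edgeR's quasi-likelihood test. Adjusted p values use the Benjamini-Hochberg method over the 17015 genes. Fits that left out mice or changed the filter tested other numbers of genes and were adjusted over those. An unadjusted p is named as such. A gene is called changed at an adjusted p under 0.05. Plk1, Melk, Ccna2, Cdc25b, Cdc25c, Cdc20, Ube2c, Espl1, Cenpf, Cdca8, Kif11, Kif18a, Kif20a, Kif4, Nusap1, Prc1, Ect2, Mki67 and Top2a overlap another annotated gene on the opposite strand, and how the counting used strand is not given in the sources used here. Ndc80, Incenp, Kif11, Kif14, Kif15, Kif20b, Tpx2, Nusap1, Anln, Top2a and Foxm1 overlap another annotated gene on the same strand.

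CCl4 raised nearly the whole set in NTC livers. Of the 50 genes, 48 were higher, 1 (Pttg1, securin) was lower and 1 (Spc24, a subunit of the NDC80 kinetochore complex) was not called. Over all 17015 genes, 53.8% were called in this comparison, 27.5% higher and 26.3% lower. The median log2 fold change of the 50 genes was 4.91, a 30.1-fold difference, against 0.03 for all tested genes. In bulk RNA, more dividing cells and more of this RNA in each cell cannot be told apart. The 50 genes took 0.00678% to 0.00897% of all counts in the vehicle livers and 0.0851% to 0.162% in the CCl4 livers. All levels of the 48 genes in the 3 NTC-CCl4 mice lay above those in both NTC-Veh mice, as was so for 36.7% of all tested genes.

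**Figure D2:**
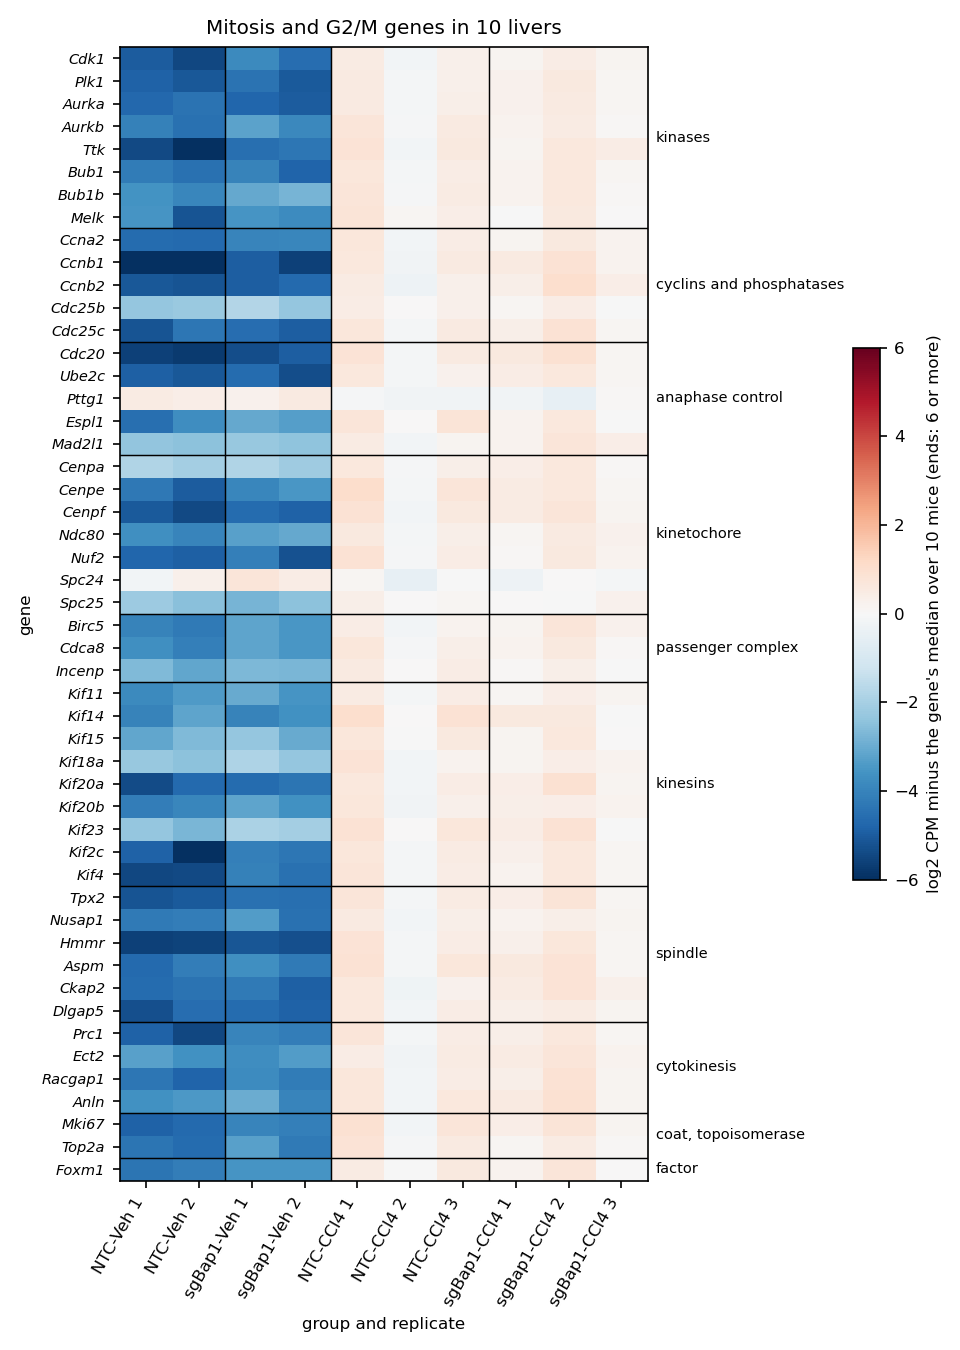
Level of each of the 50 genes (y axis, grouped by role) in each of the 10 mice (x axis, group and replicate), as log2 CPM minus the gene's median over the mice, with a pseudocount of 2 counts. The 6 CCl4 livers are above the 4 vehicle livers in 48 rows, and Pttg1 and Spc24 are the exceptions.

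Of the mitotic kinases, 8 of 8 were called higher, with a median log2 fold change of 4.95. Cdk1 (ENSMUSG00000019942.13, chr10:69335146-69352938), the kinase that starts mitosis, measured 0.789 and 0.554 CPM in the NTC-Veh mice and 37.3, 23.8 and 33.3 CPM in the NTC-CCl4 mice. The groups did not overlap, and the log2 fold change was 5.54 (SE 0.30, edgeR adjusted p = 1.43e-06). Aurka, the Aurora kinase of the spindle poles, went from 0.68 and 0.859 to 28.1, 17.7 and 24.6 CPM (log2 fold change 4.93, SE 0.27). The other kinases were Plk1 (5.34), Aurkb (4.82), the checkpoint kinases Bub1 (4.97) and Bub1b (4.25), and Melk (4.89), all as log2 fold changes. Ttk (ENSMUSG00000038379.15, chr9:83834689-83872389), the kinase that starts the spindle checkpoint, had 0.0816 and 0 CPM in the NTC-Veh mice and 9.72, 4.81 and 8.07 CPM in the NTC-CCl4 mice. Its log2 fold change of 7.42 was the largest of the 50 genes, but its vehicle level rests on 3 counts in all against 1022 with CCl4. The ratio of these counts, as CPM, was 179, with a 95% counting interval of 61.1 to 870.

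All 5 cyclins and CDC25 phosphatases were higher, with a median log2 fold change of 5.42. Ccnb1 (ENSMUSG00000041431.16, chr13:100778650-100786570), cyclin B1, measured 0.218 and 0.388 CPM with vehicle and 43.5, 23.9 and 40.1 CPM with CCl4 in NTC livers. Its log2 fold change of 6.87 (SE 0.46, edgeR adjusted p = 5.74e-06) was the largest after that of Ttk, and 23.4% of the 50-base stretches of its transcripts also occur in other genes, most in the pseudogene Ccnb1-ps. Ccna2, cyclin A2, went from 1.12 and 1.08 to 45.7, 25.5 and 38.8 CPM (log2 fold change 5.06, SE 0.30). It overlaps Exosc9 on the other strand. Cdc25b, which starts the activation of CDK1, had the smallest change of this role at 2.59, against 5.59 for Cdc25c.

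The genes of anaphase control divided. Cdc20, the activator of the anaphase-promoting complex, rose from 0.626 and 0.554 to 57.5, 29.7 and 47.6 CPM, a log2 fold change of 6.24 (SE 0.45, edgeR adjusted p = 9.12e-06). Its transcripts share 10.4% of their 50-base stretches with other genes, and it overlaps Elovl1 on the other strand. Ube2c, which brings ubiquitin to that complex, rose by 5.34 on the log2 scale, Espl1 (separase, the protease that cuts cohesin) by 4.78 and Mad2l1, a checkpoint protein, by 2.63. Pttg1 (ENSMUSG00000020415.16, chr11:43420250-43426251), which encodes securin, the inhibitor of separase, went the other way. It measured 29.3 and 28.1 CPM in the NTC-Veh mice and 20, 18.1 and 18 CPM in the NTC-CCl4 mice. Every CCl4 liver was below both vehicle livers, as for 35% of all tested genes, with a log2 fold change of -0.62 (SE 0.15, edgeR adjusted p = 0.00467). Scaled by library size alone, its log2 fold change was -0.14 (edgeR adjusted p = 0.321), under which the median of all genes was 0.50. No 50-base stretch of its transcripts occurs in another gene.

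Of 7 centromere and kinetochore genes, 6 were higher, with a median log2 fold change of 4.33 over the 7. Cenpf, a large protein of the outer kinetochore, went from 0.517 and 0.388 to 34.2, 16.4 and 27.8 CPM (log2 fold change 5.84, SE 0.42). Cenpa, the histone H3 variant of centromeres, measured 7.24 and 6.23 CPM with vehicle and 39, 24.2 and 32.2 CPM with CCl4. Its log2 fold change of 2.24 (SE 0.23) was the smallest of the 48 genes that rose. Cenpe, a kinesin of the kinetochore, rose by 5.35 on the log2 scale. The 4 subunits of the NDC80 complex, which grips microtubules, differed in their values. Ndc80 rose by 4.33, Nuf2 by 5.56 and Spc25 by 2.50 on the log2 scale. Spc24 (ENSMUSG00000074476.6, chr9:21755442-21760303) measured 8.76 and 12.3 CPM in the NTC-Veh and 10.8, 7.06 and 9.65 CPM in the NTC-CCl4 mice. These groups overlapped, and its log2 fold change was -0.20 (SE 0.20, edgeR adjusted p = 0.435). It was 0.27 with scaling by library size alone and 0.068 without NTC-Veh replicate 2, so that no direction is given for it.

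The chromosomal passenger complex, which corrects wrong attachments, had all 3 of its listed subunits higher, with a median log2 fold change of 4.30. Birc5, survivin, went from 1.22 and 1.02 to 28.1, 18.3 and 23.6 CPM (log2 fold change 4.37, SE 0.28), and Incenp, its scaffold, from 2.48 and 1.77 to 22.4, 15.6 and 21.3 CPM (3.22, SE 0.22). Cdca8, borealin, rose by 4.30. Levels of all 3 were separate between the groups.

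All 9 kinesins, motors that move on or take apart spindle microtubules, were higher, with a median log2 fold change of 4.42. Kif20a, a motor of the central spindle, measured 0.762 and 1.27 CPM with vehicle and 51.6, 29.4 and 45.2 CPM with CCl4 (log2 fold change 5.37, SE 0.40), and it overlaps Cdc23 on the other strand. Kif11, which pushes the spindle poles apart, went from 1.01 and 1.39 to 21.4, 13.7 and 20.6 CPM (3.95, SE 0.27). The motors ranged from 2.81 for Kif18a to 6.11 for Kif4, with Kif2c at 6.07, Kif20b at 4.45, Kif14 at 4.42, Kif15 at 3.42 and Kif23 at 3.11.

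Spindle proteins (6 of 6 higher, median log2 fold change 5.24) and cytokinesis genes (4 of 4 higher, median 4.49) were called higher throughout. Tpx2, which activates Aurora A, went from 0.599 and 0.665 to 38.2, 21.3 and 32.8 CPM (5.60, SE 0.36), and Hmmr, a spindle pole protein, from 0.381 and 0.388 to 36.2, 18.8 and 27.4 CPM (6.15, SE 0.39). Dlgap5 (5.43), Aspm (5.04), Ckap2 (4.87) and Nusap1 (4.57) made up the rest of the spindle genes. Among the genes of cytokinesis, Prc1, which bundles the microtubules of the central spindle, went from 0.789 and 0.499 to 39.4, 22.3 and 32.8 CPM (5.60, SE 0.35). Ect2, which switches on RhoA at the cleavage site, went from 2.53 and 1.94 to 33.3, 20.9 and 34.7 CPM (3.72, SE 0.29), with Racgap1 at 4.98 and Anln at 4.01.

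Mki67 (ENSMUSG00000031004.8, chr7:135689784-135716361), the Ki-67 protein that coats mitotic chromosomes, measured 2.78 and 3.21 CPM in the NTC-Veh mice and 152, 73.8 and 138 CPM in the NTC-CCl4 mice, a log2 fold change of 5.34 (SE 0.38, edgeR adjusted p = 8.67e-06). Top2a (ENSMUSG00000020914.17, chr11:98992943-99024189), the topoisomerase that untangles sister chromatids, went from 1.58 and 1.36 to 61.1, 32.9 and 50.4 CPM (5.03, SE 0.39). Foxm1 (ENSMUSG00000001517.14, chr6:128362967-128376146), the transcription factor of the G2/M genes, went from 0.572 and 0.693 to 18.3, 12.7 and 19.4 CPM (4.73, SE 0.32). NTC-CCl4 replicate 2 was the lowest of the 3 NTC-CCl4 livers for all of these. By promoter, the 32 genes with a CHR were all called higher, with a median log2 fold change of 4.95, and of the 9 without one 8 were, with a median of 4.57.

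**Figure D3:**
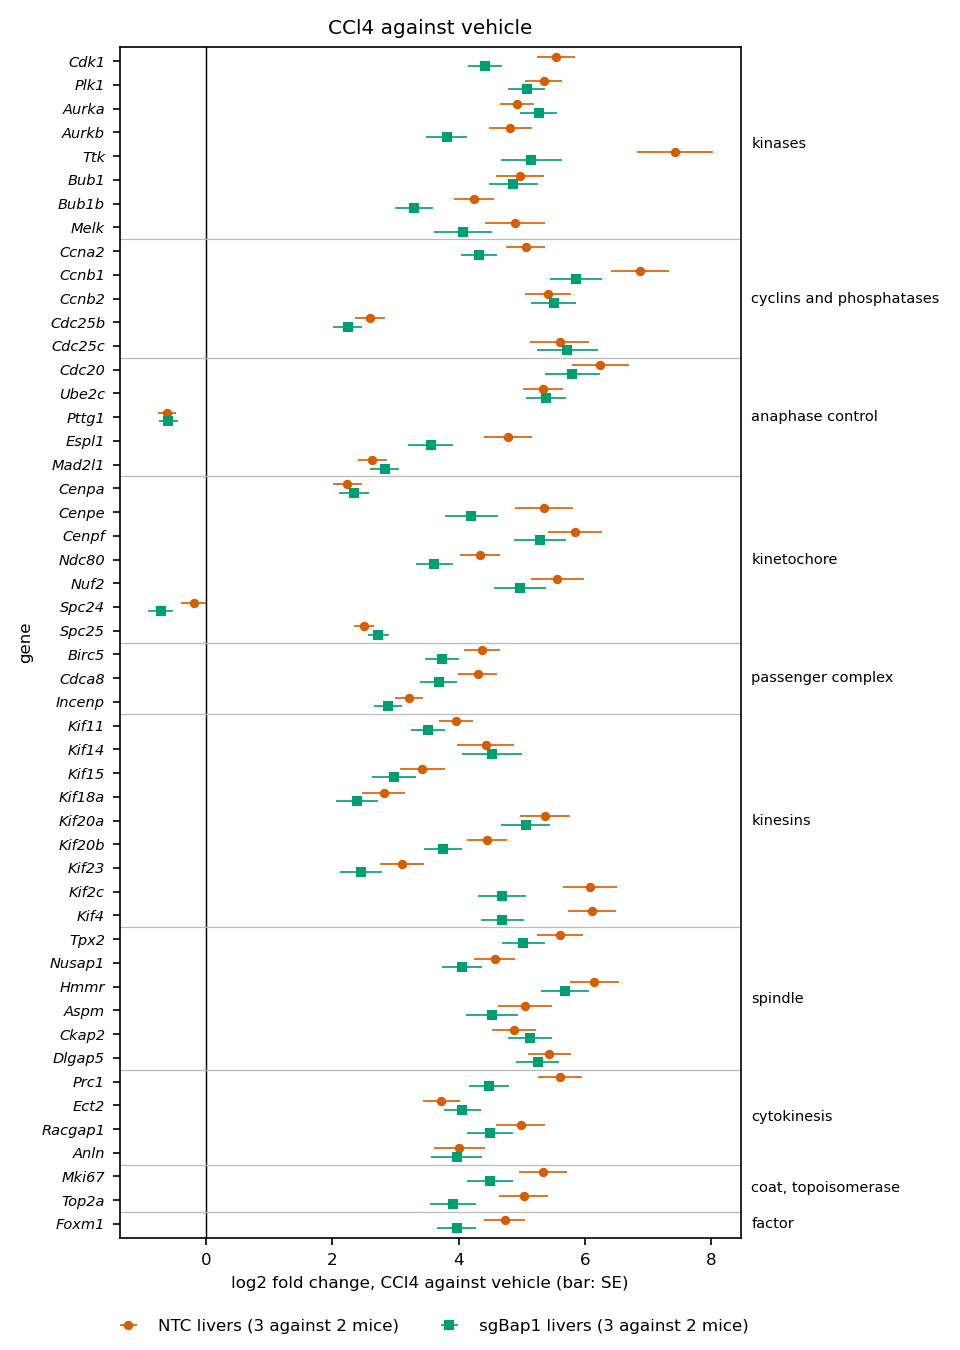
Log2 fold change of CCl4 against vehicle (x axis, bars show the SE) for each of the 50 genes (y axis, grouped by role) in NTC livers (orange circles) and sgBap1 livers (green squares), 3 against 2 mice in each. In both, 48 genes lie to the right of 0, and Pttg1 and Spc24 lie to the left.

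In sgBap1 livers, compared with the sgBap1-Veh mice, CCl4 raised 48 of the 50 genes and lowered 2, beside 56.7% of all tested genes called, 29% higher and 27.7% lower. The median log2 fold change was 4.26, a 19.1-fold difference, against 0.04 for all genes. By role the medians were 5.50 for cyclins and phosphatases, 5.08 for spindle proteins, 4.64 for kinases, 4.26 for cytokinesis genes, 4.20 for Mki67 and Top2a, 3.97 for Foxm1, 3.75 for kinesins, 3.68 for the passenger complex, 3.62 for the kinetochore and 3.55 for anaphase control. Without the liver that held fat cell markers the median was 4.13, with 48 genes higher and 2 lower. Hepatocyte markers went from 110000 to 115000 CPM down to 67600 to 86800 CPM (4 of 8 lower), and stellate cell and fibroblast markers from 238 to 267 up to 646, 1450 and 503 CPM (5 of 7 higher), the 1450 in the liver with fat cell markers. Neutrophil and monocyte markers went from 10.1 to 10.6 up to 53.4 to 65.8 CPM (4 of 5 tested markers higher). Cholangiocyte markers went from 43.4 to 49.5 up to 272 to 370 CPM (2 of 6 higher). Most of that sum was Spp1, with 37.1 and 42.5 CPM with vehicle and 335, 352 and 260 CPM with CCl4. Krt7, Krt19, Epcam and Cftr of the same list were not called. Kupffer cell and macrophage markers measured 409 to 615 CPM with vehicle and 619 to 842 CPM with CCl4 (3 of 8 higher, 2 lower), and endothelial markers 153 to 213 and 204 to 239 CPM (3 of 6 higher, 2 lower). Erythroid markers measured 421 to 506 and 494 to 653 CPM (0 of 5 tested markers higher, 2 lower). Markers of T and NK cells measured 8.08 to 8.5 and 5.29 to 8.23 CPM and those of B and plasma cells 11.2 to 13.7 and 9.62 to 11.5 CPM, with 0 called in either list. The part of these cells in the result was not tested.

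Cdk1 measured 1.86 and 1.08 CPM in the sgBap1-Veh and 30.3, 36.3 and 30.1 CPM in the sgBap1-CCl4 mice, a log2 fold change of 4.42 (SE 0.28, edgeR adjusted p = 2.08e-06). Ccnb1 had the largest change of the 50 genes here, from 0.861 and 0.524 to 40.6, 51.3 and 32.6 CPM (5.86, SE 0.42). Mki67 went from 5.14 and 4.79 to 107, 138 and 91 CPM (4.49, SE 0.36) and Top2a from 3.52 and 1.76 to 37.8, 48.2 and 35.8 CPM (3.90, SE 0.36). In each of these genes every CCl4 liver lay above both vehicle livers, as for 37.3% of all tested genes. Without the liver with fat cell markers the log2 fold changes were 4.32 for Cdk1, 5.67 for Ccnb1, 4.32 for Mki67 and 3.76 for Top2a. Cdc25c rose from 6 counts over both sgBap1-Veh mice to 846 over the 3 sgBap1-CCl4 mice, a ratio of 54.9 in CPM with a 95% counting interval of 25.1 to 150.

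Both genes that fell in sgBap1 livers were the exceptions of the NTC livers. Pttg1 measured 25.5 and 30.8 CPM with vehicle and 18.4, 15.1 and 22.2 CPM with CCl4, a log2 fold change of -0.60 (SE 0.15, edgeR adjusted p = 0.00547). It missed the threshold without sgBap1-Veh replicate 2 (-0.46, edgeR adjusted p = 0.0659) and with scaling by library size alone (-0.13, edgeR adjusted p = 0.382). Spc24 measured 16.5 and 13.6 CPM with vehicle and 8.14, 10.2 and 9.05 CPM with CCl4, with no overlap, as for 34.9% of all tested genes in this direction, and a log2 fold change of -0.72 (SE 0.20, edgeR adjusted p = 0.0107). It missed the threshold without sgBap1-Veh replicate 1 (-0.57, edgeR adjusted p = 0.1) and with scaling by library size alone (-0.24, edgeR adjusted p = 0.387). Without the liver with fat cell markers, Pttg1 was at -0.47 and Spc24 at -0.81, both past the threshold.

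**Figure D4:**
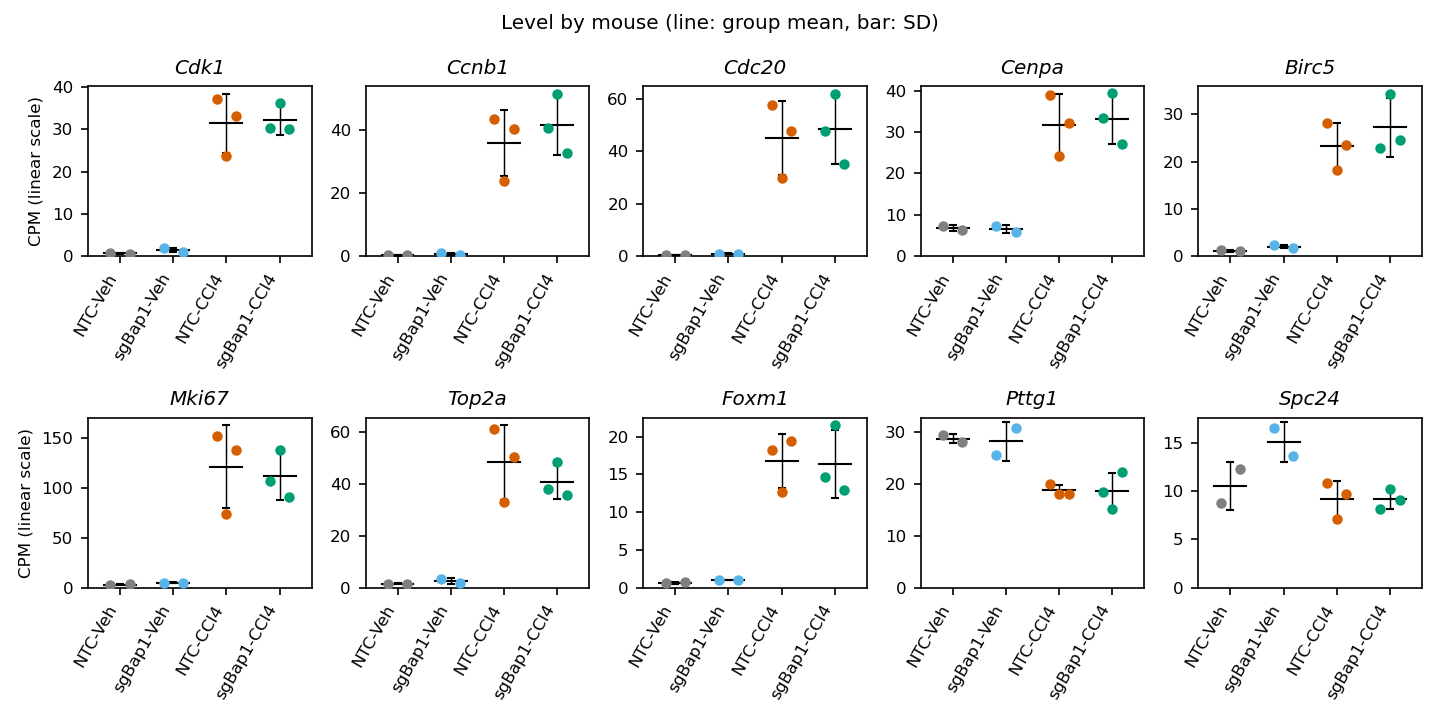
CPM on a linear scale (y axis) of 10 of the genes in each mouse (points) by group (x axis), with the group mean (line) and SD (bar), 2 mice in each vehicle and 3 in each CCl4 group. Cdk1, Ccnb1, Cdc20, Cenpa, Birc5, Mki67, Top2a and Foxm1 are higher in all 6 CCl4 livers than in all 4 vehicle livers, and Pttg1 is lower in all 6.

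Livers of the same group differed more in these genes than in the median of all tested genes, with CCl4 and with vehicle. In NTC-CCl4 livers the highest mouse was 1.73 times the lowest in the median of the 50 genes. In the median of all tested genes it was 1.22 times. The values were 1.43 against 1.25 times in sgBap1-CCl4, 1.25 against 1.14 times in NTC-Veh and 1.26 against 1.16 times in sgBap1-Veh livers. The comparison was not limited to genes of similar level. The summed level of the 50 genes was 1316, 755.6 and 1136 CPM in the NTC-CCl4 mice and 1029, 1309 and 925 CPM in the sgBap1-CCl4 mice. NTC-CCl4 replicate 2 was the lowest of these 6 mice for 42 of the 50 genes. NTC-CCl4 replicate 1 was the highest for 29 and sgBap1-CCl4 replicate 2 for 19. The same mice were thus high or low for most of the genes. In vehicle livers the sums were 86.3 and 84.9 CPM in NTC and 107 and 99.7 CPM in sgBap1 mice.

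To see whether targeting Bap1 alone moved these genes, sgBap1-Veh were compared with NTC-Veh livers. Of the 50 genes, 0 were called by edgeR, beside 0.47% of all tested genes. At an unadjusted p under 0.05 there were 8, all higher, beside 12.6% of all genes in either direction. The median log2 fold change was 0.52, a 1.44-fold difference, against 0.02 for all genes, and 43 of the 50 were above 0, against 53.4% of all genes. In 27 genes both sgBap1-Veh mice lay above both NTC-Veh mice, beside 21.7% of all genes, and in 1 (Aurka) both lay below, beside 19.2%. An exact permutation test of 2 against 2 mice cannot give a two-sided p below 0.333, so a single gene's order of mice carries little weight.

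Cdk1 came closest to the threshold, with 0.789 and 0.554 CPM in the NTC-Veh and 1.86 and 1.08 CPM in the sgBap1-Veh mice. The groups did not overlap, and the log2 fold change was 1.16 (SE 0.37, edgeR adjusted p = 0.223). DESeq2's Wald test called this gene and no other of the 50 (adjusted p = 0.0302), beside 3.3% of all genes that it called. Over all fits of the data the adjusted p of Cdk1 ran from 0.0302 to 0.668 and its log2 fold change from 0.68, without sgBap1-Veh replicate 1, to 1.46. Birc5 had 1.22 and 1.02 CPM in NTC-Veh and 2.26 and 1.8 CPM in sgBap1-Veh mice (log2 fold change 0.86, SE 0.33, edgeR adjusted p = 0.311). Kif4, a motor of the chromosome arms, had 0.191 and 0.194 against 0.565 and 0.412 CPM (1.36, SE 0.53, edgeR adjusted p = 0.323). The other genes under an unadjusted p of 0.05 were Ttk (2.23), Prc1 (1.12), Kif2c (1.36), Bub1b (0.85) and Spc24 (0.52), all as log2 fold changes. The value of Ttk (SE 0.95) rests on 3 counts over the NTC-Veh and 13 over the sgBap1-Veh mice. That of Kif2c rests on 14 and 32 counts. Mki67 measured 2.78 and 3.21 against 5.14 and 4.79 CPM, a log2 fold change of 0.73 (SE 0.38, edgeR adjusted p = 0.499) with no overlap. By role, the medians ran from 0.08 for anaphase control to 0.81 for Mki67 and Top2a.

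sgBap1-Veh replicate 1 was the highest of the 4 vehicle mice for 32 of the 50 genes, and without it the median log2 fold change was 0.37. Summed markers of Kupffer cells and macrophages were 197 to 313 CPM in NTC-Veh and 409 to 615 CPM in sgBap1-Veh livers (1 of 8 called, higher). Those of T and NK cells were 2.47 to 5.17 and 8.08 to 8.5 CPM (0 of 7 called). Markers of B and plasma cells were 6.12 to 9.83 and 11.2 to 13.7 CPM (0 of 6 called). Those of neutrophils and monocytes were 5.76 to 8.82 and 10.1 to 10.6 CPM (0 of 5 tested markers called). Hepatocyte markers were 123000 to 153000 and 110000 to 115000 CPM (0 of 8 called). Endothelial markers were 149 to 160 and 153 to 213 CPM, and stellate cell and fibroblast markers 193 to 241 and 238 to 267 CPM. Cholangiocyte markers were 43.2 to 51.5 and 43.4 to 49.5 CPM, and erythroid markers 350 to 515 and 421 to 506 CPM. In each of these lists 0 were called, beside 0.47% of all tested genes called in this comparison. The part of these cell types in the levels of the 50 genes was not tested. NTC-Veh mice are the control of this comparison and of CCl4 in NTC livers, and sgBap1-Veh mice are shared with that of CCl4 in sgBap1 livers.

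With CCl4, the genotypes did not differ detectably in these genes. Of the 50, 0 were called by edgeR (0.253% of all genes) and 0 had an unadjusted p under 0.05 (13.4% of all genes), and DESeq2's Wald test called 0 (2.99% of all genes). The median log2 fold change of sgBap1-CCl4 against NTC-CCl4 was -0.02, with 21 genes above 0 (50.3% of all genes were) and 29 below, and 0 genes had separate groups, beside 10.1% of all genes higher and 10.2% lower. Leaving out NTC-CCl4 replicate 1 or 2 moved the median to 0.18 or -0.21, and leaving out the liver with fat cell markers moved it to -0.15. Ccnb2, cyclin B2, had the smallest p, with 34.4, 20.4 and 30.2 CPM in the NTC-CCl4 and 31.8, 49.6 and 32.3 CPM in the sgBap1-CCl4 mice (log2 fold change 0.42, SE 0.21, edgeR adjusted p = 0.429). Without the liver with fat cell markers its log2 fold change was 0.18. Next were Mad2l1 (0.26, SE 0.17) and Ckap2 (0.30, SE 0.21). Cdk1 measured 37.3, 23.8 and 33.3 against 30.3, 36.3 and 30.1 CPM (0.04, SE 0.18), and Mki67 measured 152, 73.8 and 138 against 107, 138 and 91 CPM (-0.11, SE 0.25). In each of these genes the groups overlapped. An exact permutation test of 3 against 3 mice cannot give a two-sided p below 0.1, and a p above the threshold does not show that the genotypes are alike.

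**Figure D5:**
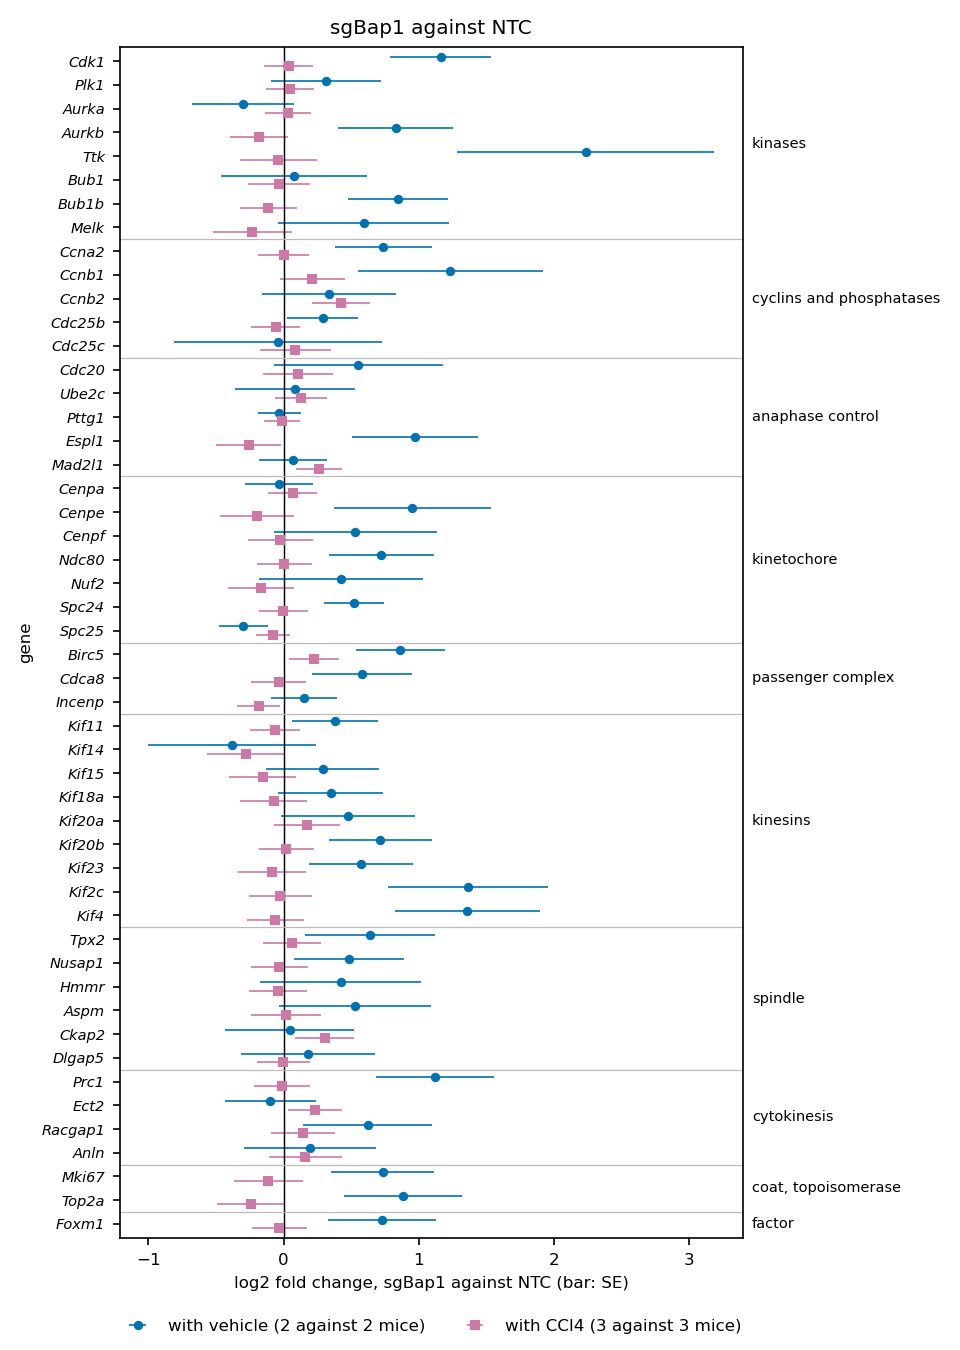
Log2 fold change of sgBap1 against NTC (x axis, bars show the SE) for each of the 50 genes (y axis, grouped by role) with vehicle (blue circles, 2 against 2 mice) and with CCl4 (pink squares, 3 against 3 mice). With vehicle 43 of the 50 genes lie to the right of 0, and with CCl4 21 do, with 0 past the threshold of edgeR.

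The interaction, which asks whether CCl4 changed a gene by a different factor in sgBap1 than in NTC livers, was tested in the same model. Of the 50 genes, 0 were called by edgeR (0% of all genes), and 6 had an unadjusted p under 0.05 (10.6% of all genes), all 6 with a smaller rise in sgBap1 livers. DESeq2's Wald test called 0 of the 50, and 2.49% of all genes. The median difference of log2 fold changes was -0.51, or -0.67 without the liver with fat cell markers, against -0.02 for all genes, and 11 of the 50 were above 0, against 47.7% of all genes. Cdk1 had the smallest p, with a log2 fold change of 5.54 in NTC and 4.42 in sgBap1 livers, a difference of -1.13 (SE 0.42, edgeR adjusted p = 0.375) that was -1.22 without that liver. Kif4 followed (6.11 and 4.69, difference -1.42, SE 0.57), and then Espl1 (4.78 and 3.55, difference -1.23, SE 0.52). For these 3 genes the CCl4 groups overlapped between genotypes and the vehicle groups did not. Espl1 measured 0.218 and 0.416 CPM in the NTC-Veh and 0.673 and 0.561 CPM in the sgBap1-Veh mice, against 10, 6.08 and 10.2 CPM in the NTC-CCl4 and 6.94, 9.19 and 5.84 CPM in the sgBap1-CCl4 mice. The 4 groups enter every such difference, so it is not separate evidence from the comparison with vehicle.

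A list of 85 other mitotic genes was read from the same fits. With CCl4 in NTC livers, 63 were higher, 5 were lower and 17 were not called, with a median log2 fold change of 1.74. Of all tested genes, 27.5% were higher and 26.3% lower. By class, the counts higher were 10 of 11 for spindle and cytokinesis (median 4.21), 8 of 9 for mitotic entry (2.66), 10 of 12 for condensin and cohesion (2.37), 19 of 27 for the kinetochore (2.21), 6 of 10 for the MuvB and DREAM group (0.63) and 10 of 16 for the checkpoint and anaphase control (0.49). Ckap2l, a spindle protein, had the largest change, from 0.136 and 0.36 to 25.2, 13.1 and 22.8 CPM (6.35, SE 0.56, edgeR adjusted p = 2.38e-05). Knl1, the kinetochore scaffold (5.42), Ncapg of condensin (5.19), Sgo2a, which protects centromeric cohesion (5.08), Nek2, a centrosome kinase (4.99), and Mybl2, which encodes B-MYB (2.79), led their classes. The 5 lower genes were Hjurp, Cdc26, Numa1, Rbbp4 and Rbl2, and Rbl2, the p130 pocket protein of DREAM in resting cells, fell by 1.09 on the log2 scale. In sgBap1 livers 69 were higher, 7 lower and 9 not called, with a median of 1.74, beside 29% of all genes higher and 27.7% lower. Without the liver with fat cell markers 65 were higher and 7 lower.

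Between genotypes, edgeR called 0 of the 85 with vehicle, 0 with CCl4 and 0 for the interaction, beside 0.47%, 0.253% and 0% of all genes. Under an unadjusted p of 0.05 there were 7, 5 and 3, beside 12.6%, 13.4% and 10.6% of all genes. With CCl4, DESeq2's Wald test called Zwint, a kinetochore protein, beside 2.99% of all genes. Zwint measured 79.7, 81.7 and 81.4 CPM in the NTC-CCl4 and 106, 102 and 94.6 CPM in the sgBap1-CCl4 mice. The groups did not overlap, and the log2 fold change was 0.32 (DESeq2 adjusted p = 0.000812, edgeR adjusted p = 0.0964). Zwint is named because DESeq2 called it.

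Markers of other cells also moved with CCl4, in a comparison where 27.5% of all tested genes were called higher and 26.3% lower. From NTC-Veh to NTC-CCl4 livers, the summed level of 8 hepatocyte markers went from 123000 to 153000 down to 73700 to 84500 CPM, and 7 of the 8 were lower. Stellate cell and fibroblast markers went from 193 to 241 up to 540 to 681 CPM (6 of 7 higher), Kupffer cell and macrophage markers from 197 to 313 up to 625 to 1080 CPM (5 of 8 higher), and neutrophil and monocyte markers from 5.76 to 8.82 up to 57.8 to 68.2 CPM (4 of 5 tested markers higher). Of the macrophage list, Marco went from 23.7 and 6.09 to 218, 154 and 381 CPM, and Clec4f, Vsig4 and Timd4 were not called. Endothelial markers went from 149 to 160 up to 197 to 243 CPM (3 of 6 higher). Cholangiocyte markers went from 43.2 to 51.5 up to 192 to 249 CPM (2 of 6 higher). Most of that sum was Spp1, with 38.7 and 43.6 CPM with vehicle and 180, 234 and 181 CPM with CCl4. Krt7, Krt19, Epcam and Cftr of the same list were not called. Erythroid markers, from 350 to 515 CPM with vehicle, measured 524 to 1450 CPM (2 of 5 tested markers higher, 1 lower). B and plasma cell markers measured 6.12 to 9.83 CPM with vehicle and 10.3 to 15.4 CPM with CCl4 (3 of 6 higher), and those of T and NK cells 2.47 to 5.17 and 5.78 to 10 CPM (2 of 7 higher). Ly6g and Elane, which mark neutrophils and their precursors, reached at most 0.154 and 0.208 CPM in any liver. Which of these cells held the RNA of the 50 genes was not tested.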

How the data were processed

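The deposited values are estimated counts per gene, made by the authors with STAR 2.7.6a and Salmon 1.4.0 on GRCm38 with the GENCODE vM25 annotation from paired 50-base reads of stranded mRNA libraries. The library type given to Salmon is not given in the sources used here. Of the values, 9.22% were not whole, and all were rounded. No column was left out. Totals were 33047900 to 52199900 per mouse. In R 4.3.3, genes were filtered with filterByExpr and fitted in 1 edgeR 4.0.16 quasi-likelihood model over the 4 groups, with TMM factors and Benjamini-Hochberg adjustment over 17015 genes. The 4 comparisons and the interaction were contrasts of this model. The code was tested on simulated data. DESeq2 1.42.0, other scalings and filters, a replicate block, fits of only the groups compared and leaving out each mouse served as alternatives. Each mouse gave 1 sample, and mean chi-square values of 15.9 to 115 between mice of a group lay above sampling noise. The labels give replicate numbers but name no pairing, and the numbers were not read as pairs. The members and gene lists were chosen with earlier results of these data known. Genes were named as the 2 with the highest mean CPM in each role, the 3 largest and 3 smallest changes with CCl4 in NTC livers, the 3 smallest p of each genotype comparison and of the interaction, genes not called with CCl4 in NTC livers, and the largest change in each class of other mitotic genes. Further genes named were chosen after their values were seen. Positions are from GENCODE vM21 and promoters from RefSeq GRCm38.p6.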

Additional observations from a re-analysis of the deposited data

How the results depend on the processing

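Scaling by library size alone moved the median log2 fold change of the 50 genes to 5.39 with CCl4 in NTC livers and 4.75 in sgBap1 livers. It also moved the median of all genes to 0.50 and 0.52, and the share of calls that were higher from 51.1% and 51.2% to 80.7% and 78.5%. Spc24 turned direction in NTC livers with that scaling (0.27) and without NTC-Veh replicate 2, where it was 0.068, the upper end of a range from -0.42 without NTC-Veh replicate 1. Between genotypes, DESeq2's Wald test called 1 of the 50 genes with vehicle, beside 3.3% of all genes. With CCl4 it called 1 of the 85 other mitotic genes, beside 2.99% of all genes. edgeR called 0 in each case.

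Leaving out 1 mouse at a time gave medians for the 50 genes of 4.74 to 5.08 (CCl4 in NTC), 4.13 to 4.54 (CCl4 in sgBap1), 0.37 to 0.64 (sgBap1 with vehicle), -0.21 to 0.18 (sgBap1 with CCl4) and -0.69 to -0.32 (interaction). The number called was 49 in each such fit in NTC livers, 49 to 50 in sgBap1 livers and 0 between genotypes.

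With the replicate number as a block, 49 and 50 of the 50 genes were called with CCl4 and 0 between genotypes or for the interaction, and Bap1 missed the threshold (edgeR adjusted p = 0.0713 with vehicle, 0.0618 with CCl4). The block changed no call among the 50 genes. Of the 85 other mitotic genes, 65 were called with CCl4 in NTC and 70 in sgBap1 livers with the block, against 68 and 76 without it. Deviations from the group means correlated at 0.011, 0.021 and -0.149 between CCl4 mice of the same number and at -0.014 between vehicle mice. The numbers were not read as pairs, although with so few mice these values cannot exclude pairing.

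Over all genes, the calls between genotypes were few and moved most. With vehicle there were 80, against 1 with the block, 177 with no filter, 562 by DESeq2 and 0 to 150 with a mouse left out, 0 without NTC-Veh replicate 2 or sgBap1-Veh replicate 1. Fits of only the 2 groups compared gave 35 with vehicle, and library size alone gave 47. With CCl4 there were 43, against 3 with the block, 29 in the fit of only those mice, 113 with no filter, 509 by DESeq2 and 1 to 49 with a mouse left out, the 1 without NTC-CCl4 replicate 1. For the interaction there were 0, against 103 with no filter, 424 by DESeq2, 8 with library size alone and 12 without sgBap1-CCl4 replicate 2. The cause of these shifts was not tested. Low vehicle counts limit the precision of fold changes such as that of Ttk.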

Other observations

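Genes of DNA replication, which is completed before mitosis, were read from the same fits as a list of 20 S phase genes. With CCl4 in NTC livers 19 of the 20 were higher, beside 27.5% of all genes, with a median log2 fold change of 2.50. In sgBap1 livers 19 were higher, beside 29% of all genes, with a median of 2.01. Cdc6, which loads the replicative helicase, measured 0.136 and 0.0831 CPM in the NTC-Veh mice and 7.57, 5.2 and 6.24 CPM in the NTC-CCl4 mice (log2 fold change 5.81, SE 0.34, edgeR adjusted p = 1.43e-06). Gmnn, geminin, the inhibitor of that loading, was the gene not called, with 5.88 and 6.26 CPM against 9.93, 7.04 and 6.89 CPM (0.39, edgeR adjusted p = 0.0704) in NTC livers and 0.13 (edgeR adjusted p = 0.53) in sgBap1 livers.

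Between genotypes with vehicle, edgeR called 0 of the 20, beside 0.47% of all genes. At an unadjusted p under 0.05 there were 4, all higher in sgBap1 livers, beside 12.6% of all genes in either direction. The smallest adjusted p was that of Mcm5, a subunit of the helicase, with 2.15 and 1.55 CPM in the NTC-Veh and 4.68 and 3.4 CPM in the sgBap1-Veh mice (log2 fold change 1.14, SE 0.23, edgeR adjusted p = 0.0649). With CCl4, 0 were called (0.253% of all genes) and 0 had an unadjusted p under 0.05 (13.4% of all genes), with a median of -0.06. For the interaction 0 were called (0% of all genes) and 4 had an unadjusted p under 0.05 (10.6% of all genes). All 4 had a smaller rise in sgBap1 livers. Cdc6, Gmnn and Mcm5 were chosen after their values were seen.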
